A study of Mus musculus with 12 samples.

Results

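The 3 libraries described here are splenic eosinophils cultured for 4 h with a rat IgG2a isotype control. They were chosen by their treatment label, isotype, and are 3 of the 12 libraries of the series. The other 9 libraries came from cells given an antibody to the receptor Siglec-F, the alarmin interleukin-33 (IL-33), or both, and no value of theirs is used. All 54532 genes of the deposited table were ranked by abundance within the isotype libraries, and 11726 of them passed the expression threshold given below. The cells came from mice of the strain labelled IL-5tg_4get/C57BL/6, and the labels give no age or sex. These mice carry an interleukin-5 (IL-5) transgene, which drives eosinophilia and is expressed by T cells in the line cited. They also carry the 4get reporter, which marks IL-4 producing cells with green fluorescent protein. Spleen cells with high side scatter and reporter fluorescence were sorted and then cultured in a serum-containing medium for which the protocol lists no added cytokine. The cells were therefore formed under excess IL-5, chosen in part by activity at the Il4 locus, and not fresh from the animal. The labels do not say that the 3 libraries are separate animals or cultures, so the spread between them may be technical.

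Eosinophils are granulocytes that depend on IL-5, enter mucosal tissues along eotaxin gradients sensed by CCR3, and hold crystalloid granules filled with major basic protein, eosinophil peroxidase and ribonucleases. Most granule proteins are made while the cell matures in the marrow and are then stored. Mouse eosinophils are recognised by surface Siglec-F, CCR3 and the IL-5 receptor.

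Total counts were 14636985, 12983602 and 12046727 in libraries 1, 2 and 3. A gene was called expressed when it reached at least 1 CPM (counts per 1000000 counts of the library) in each of the 3 libraries. This held for 21.5% of all genes in the table and for 10289 of 22046 protein-coding genes, or 46.7%. Counts of expressed list members below are to be read beside these shares, since the lists were chosen with earlier results of these data known. Another 30501 genes had no count in any library. A count of 0 allows up to 3 counts, which is 0.205 to 0.249 CPM in a single library and 0.0756 CPM over the 3 (counting error only). Levels of different genes were compared as TPM, the transcript measure in which the count is divided by the gene length of the table and scaled so that the genes of a library sum to 1000000. Every TPM below is a level and not a difference. The median expressed gene lay at 20.2 TPM, 1696 expressed genes passed 100 TPM and 125 passed 1000 TPM.

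The libraries were alike in shape but not in every gene group. The median SD of log2 CPM over the 3 libraries was 0.17 for an expressed gene, against 0.06 from counting alone. Library 1 stood apart for a part of the granule and dividing-cell genes, which were high in it, and for tubulin genes, which were low. Library 2 stood apart for many B-cell and class II genes, which were high in it. It was also shifted by gene length, to a smaller degree, with short genes higher and long genes lower. Library 1 had the opposite shift. Values are therefore given per library for the main members of these groups, and the groups are described further below. Library 3 stood apart low for parts of the granule, dividing-cell and T-cell lists.

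The 5 genes taken as eosinophil markers were all expressed, and they covered a wide span of levels. Prg2 (ENSMUSG00000027073, mm10 chromosome 2, 84980461 to 84983632), which encodes major basic protein, was at 11950, 6046 and 2785 TPM in libraries 1, 2 and 3. It held rank 5, 9 and 30 among all genes in these libraries and rank 8 by the mean. Ccr3 (ENSMUSG00000035448, chromosome 9, 124021972 to 124031689), the eotaxin receptor gene, was at 1768, 1710 and 2016 TPM and ranked 52. Its 3 libraries lay close together, unlike those of Prg2.

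Siglecf (ENSMUSG00000039013, chromosome 7, 43351341 to 43359531), the gene of a sialic acid-binding receptor used to recognise mouse eosinophils, was at 1160, 922 and 1185 TPM and ranked 112. Epx (ENSMUSG00000052234, chromosome 11, 87864000 to 87875536), the eosinophil peroxidase gene, was at 824, 330 and 159 TPM and ranked 355. Il5ra (ENSMUSG00000005364, chromosome 6, 106710357 to 106749037), the ligand-binding chain of the IL-5 receptor, was at 155, 105 and 135 TPM and ranked 1307. In this order by mean TPM no 2 neighbouring markers overlapped in their ranges over the libraries. Library 1 was high and library 3 low for both granule genes, and without library 1 the mean of Prg2 went from 6927 to 4415 TPM and that of Epx from 438 to 244 TPM. The rank of Epx by mean then went from 355 to 656. The ratio of Prg2 to Epx was steadier than either gene, at 16.8 ± 2.02 (SD, n = 3) on the TPM scale.

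**Figure D1:**
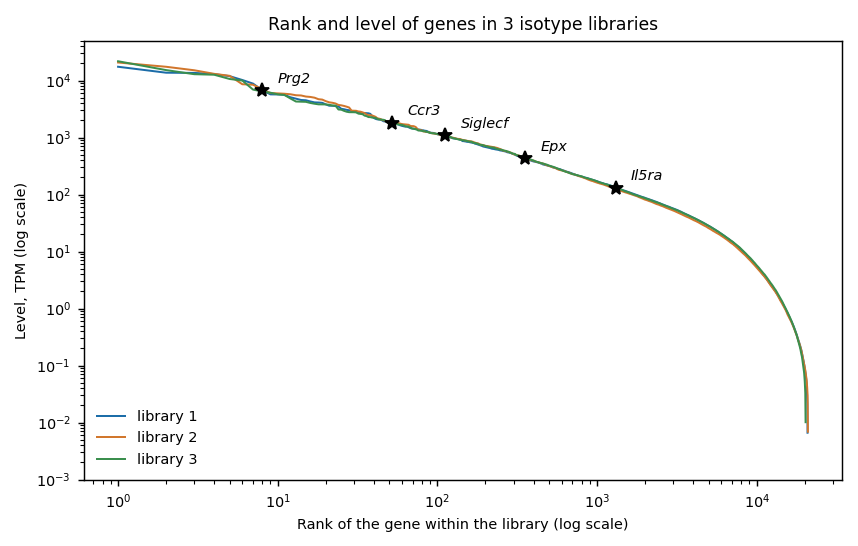
Level in TPM (log scale) against the rank of the gene within its library (log scale), with 1 line per library. Stars mark the mean TPM and the rank by mean of the markers: Prg2 at rank 8, Ccr3 at 52, Siglecf at 112, Epx at 355 and Il5ra at 1307. The 3 lines lie almost on each other.

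The promoters of the markers and of the abundant ribonuclease genes are shown because these genes define the cell and because Prg3, Epx, Ear1, Ear2 and Ear6 had the same order of libraries, with library 1 highest and library 3 lowest. Each sequence runs 5′ to 3′ from 250 bases before the gene start of RefSeq (GRCm38.p6) to 20 bases after it. The starts of the table's own gene models can differ from these, as they do for Ear1 and Ear6. Capitals mark AGATAA or TGATAA on either strand, letters that GATA factors bind, in the first 4 sequences.
Siglecf: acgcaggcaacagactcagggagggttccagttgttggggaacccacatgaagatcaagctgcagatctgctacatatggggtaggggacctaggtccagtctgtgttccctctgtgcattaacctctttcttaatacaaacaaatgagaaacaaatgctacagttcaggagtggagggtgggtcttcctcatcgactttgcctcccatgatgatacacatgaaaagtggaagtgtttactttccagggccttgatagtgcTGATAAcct
Ccr3: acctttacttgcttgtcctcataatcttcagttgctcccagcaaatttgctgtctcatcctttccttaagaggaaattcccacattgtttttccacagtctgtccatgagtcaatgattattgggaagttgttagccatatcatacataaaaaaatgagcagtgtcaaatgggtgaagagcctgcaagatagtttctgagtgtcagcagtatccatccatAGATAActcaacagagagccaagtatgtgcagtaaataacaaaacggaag
Il5ra: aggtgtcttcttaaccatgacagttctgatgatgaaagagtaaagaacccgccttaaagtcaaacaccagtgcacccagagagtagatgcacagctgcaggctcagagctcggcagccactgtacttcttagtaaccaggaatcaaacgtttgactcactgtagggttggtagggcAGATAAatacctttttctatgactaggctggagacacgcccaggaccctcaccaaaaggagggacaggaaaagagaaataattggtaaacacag
Prg3: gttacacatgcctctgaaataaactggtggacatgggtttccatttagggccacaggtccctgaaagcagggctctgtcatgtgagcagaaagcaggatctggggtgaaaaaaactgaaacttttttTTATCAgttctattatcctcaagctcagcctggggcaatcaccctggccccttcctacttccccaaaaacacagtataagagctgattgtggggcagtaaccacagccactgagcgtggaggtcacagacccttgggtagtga
Siglecf lies at chr7:43351091-43351360, Ccr3 at chr9:124021721-124021990, both on the plus strand, Il5ra at chr6:106749018-106749287 on the minus strand and Prg3 at chr2:84987965-84988234 on the plus strand. The GATA letters begin at position 11 after the start in Siglecf and at positions -30, -74 and -123 in Ccr3, Il5ra and Prg3. Over the 300 bases of each entry, which run 50 bases past the start, such letters stand in 18.6% of the 32851 mouse promoters of the table. They were not found in the window of Epx, where capitals mark the letters TATAAA at position -24, present in 13.6% of all promoters.
Epx: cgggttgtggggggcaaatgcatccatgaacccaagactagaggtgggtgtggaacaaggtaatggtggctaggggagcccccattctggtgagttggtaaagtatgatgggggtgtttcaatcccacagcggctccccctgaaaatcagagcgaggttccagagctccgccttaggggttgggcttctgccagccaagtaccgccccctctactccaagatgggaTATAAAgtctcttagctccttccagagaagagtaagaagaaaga
The entry of Epx lies at chr11:87875517-87875786 on the minus strand. Prg2 had no entry.

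The Ear genes encode eosinophil-associated ribonucleases and arose by recent duplication, and their promoters were nearly the same. Capitals mark TTGCNNAA, letters that C/EBP factors bind.
Ear1: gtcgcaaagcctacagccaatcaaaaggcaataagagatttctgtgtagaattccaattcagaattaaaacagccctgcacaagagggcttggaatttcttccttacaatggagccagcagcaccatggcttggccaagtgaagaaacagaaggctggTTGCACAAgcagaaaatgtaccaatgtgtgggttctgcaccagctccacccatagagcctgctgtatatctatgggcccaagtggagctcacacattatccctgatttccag
Ear2: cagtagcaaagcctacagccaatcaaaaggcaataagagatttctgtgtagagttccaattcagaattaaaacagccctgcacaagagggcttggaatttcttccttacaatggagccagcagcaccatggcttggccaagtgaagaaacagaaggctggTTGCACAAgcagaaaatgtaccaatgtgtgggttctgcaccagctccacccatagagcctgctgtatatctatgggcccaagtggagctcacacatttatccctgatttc
Ear6: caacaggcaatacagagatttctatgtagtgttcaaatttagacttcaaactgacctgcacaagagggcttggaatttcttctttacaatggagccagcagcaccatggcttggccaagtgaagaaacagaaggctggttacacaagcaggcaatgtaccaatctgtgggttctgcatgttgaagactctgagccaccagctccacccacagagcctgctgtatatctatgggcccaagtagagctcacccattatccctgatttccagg
Ear1 lies at chr14:43819620-43819889 on the minus strand, Ear2 at chr14:44102404-44102673 and Ear6 at chr14:51853518-51853787 on the plus strand. Over the aligned bases Ear1 and Ear2 were identical at 294 of 297, or 99.0%, and Ear1 and Ear6 at 259 of 279, or 92.8%. The C/EBP letters begin at -92 in Ear1 and -90 in Ear2 and were not found in the window of Ear6. They stand in 10.8% of all promoters and in 8.40% of those of expressed protein-coding genes. In the granule list they stand in 12 of the 29 promoters, or 41.4%. The 12 include those of the ribonuclease genes Ear1, Ear2, Ear10, Rnase2a and Rnase2b, so related genes are counted more than once. Lyz1, Ear10, Rnase2a and Rnase2b among them were barely detected, with means of 0.939, 0.469, 0.116 and 0.106 TPM. The GATA letters stood in 20.7% of the list's promoters, against 18.6% of all and 10.4% of those of expressed protein-coding genes. A match of letters is a description and does not show that a factor is bound.

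The most abundant transcripts were those of the cell cortex, iron storage, mitochondria and granules. Actb, cytoplasmic beta-actin, led in all libraries with 17478, 20747 and 21839 TPM. Tmsb4x, thymosin beta-4, which holds actin monomers, was at 13628, 15164 and 15267 TPM. Fth1, the heavy chain of ferritin, was at 13743, 17463 and 10660 TPM, and mt-Co1, a subunit of cytochrome c oxidase, was at 13001, 12106 and 12665 TPM. For Actb and Tmsb4x library 1 was the lowest, while mt-Co1 barely differed between libraries. Ccl6, a CC chemokine of myeloid cells, was the gene of rank 6 with 10237, 8459 and 9999 TPM. S100a11, B2m and Cd24a, a glycoprotein of the eosinophil surface, followed at means of 6267, 5963 and 5570 TPM.

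Not every gene near the top was steady or is sure. Gm23935, a microRNA gene model of 57 bases at rank 5, owed its 8853, 8624 and 12942 TPM to 2182, 2041 and 2652 counts over a very short length. Gm26917, a gene model at rank 7 that is annotated as a long noncoding RNA, was at 4122, 13128 and 6955 TPM, with library 2 far above the others. The source of its counts was not tested. Both mitochondrial ribosomal RNAs had the same order of libraries: mt-Rnr2 was at 3821, 7019 and 3087 TPM and mt-Rnr1 at 2607, 5956 and 2244 TPM, with library 2 highest and library 3 lowest. CT010467.1, an annotated ribosomal RNA, was at 1445, 908 and 3109 TPM, and its mean went from 1821 to 1176 TPM without library 3. Of the 30 genes with the highest TPM, 26 were protein-coding, and 15 were also among the 30 with the highest CPM, which favours long genes.

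**Figure D2:**
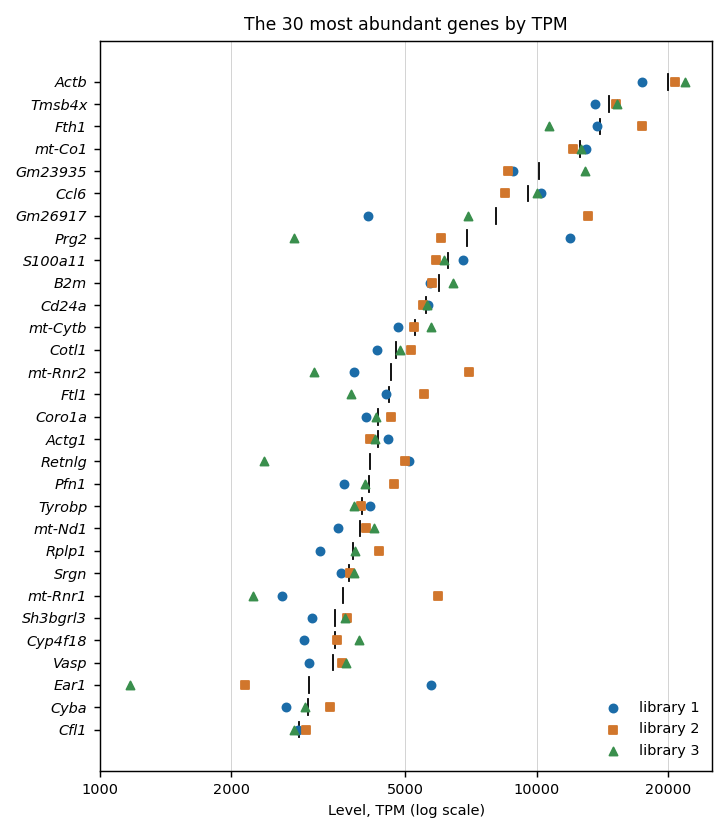
Level in TPM (log scale) of the 30 genes with the highest mean TPM, with a point per library and a bar at the mean. Most rows have 3 points close together, while Gm26917, Prg2, mt-Rnr2, mt-Rnr1, Retnlg and Ear1 are spread out.

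The profile was not dominated by a handful of genes. The 10 genes with the highest mean CPM took 5.54%, 7.06% and 6.17% of the counts of the 3 libraries, the top 100 took 19.8%, 21.5% and 20.5%, and 726, 668 and 705 genes made up 50% of them. On the TPM scale the 37 genes of the mitochondrial genome, 19 of them expressed, took 4.03% ± 0.431 (SD, n = 3). Cytosolic ribosomal protein genes, of which 83 of 88 were expressed, took 4.88% ± 0.656 of TPM. The nuclear genes of oxidative phosphorylation took 1.03% ± 0.0639, with 79 of 87 expressed. All 3 shares were highest in library 2, the library in which short genes were high, and the part of gene length in this was not tested.

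The list of actin and migration genes took more TPM than the cytosolic ribosomal protein genes, 7.67% ± 0.363 (SD, n = 3), and all 40 of its members were expressed. Among all protein-coding genes 46.7% were. Actb alone made up 26.1% of the list's TPM. Coro1a, which binds filamentous actin in leukocytes, was at 4072, 4638 and 4291 TPM, and Pfn1, profilin, at 3624, 4712 and 4047 TPM. Vasp, which extends filaments, had a mean of 3420 ± 350 TPM, and Cfl1, cofilin, which severs them, 2864 ± 85.5 TPM. Arpc5 and Arpc2, of the branching complex Arp2/3, had means of 2092 and 1786 TPM, and 15 members of the list in all passed 1000 TPM.

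Several granule genes were abundant, and a part of them differed widely between libraries. The list of 28 granule proteins and ribonucleases took 2.27% ± 1.12 of TPM (SD, n = 3), with sums of 35160, 19425 and 13475 TPM in libraries 1, 2 and 3. Without library 1 the share was 1.64%. Srgn, serglycin, the proteoglycan that packs granule content, did not share this: it was at 3574, 3741 and 3816 TPM. Mmp25, a membrane-bound metalloproteinase, was as steady at 1265, 1259 and 1302 TPM.

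The ribonuclease genes went with Prg2. Ear1 was at 5727, 2148 and 1174 TPM, Ear6 at 3142, 1537 and 973 TPM, and Ear2 at 3621, 1348 and 667 TPM. Library 1 was highest and library 3 lowest for each, and without library 1 their means went from 3016, 1884 and 1879 to 1661, 1255 and 1008 TPM. Reads of near-identical copies may be shared between these genes, so their order among themselves is uncertain. Prg3, a homolog of Prg2, was at 299, 142 and 58.0 TPM, with a mean of 166 TPM that was 100 TPM without library 1.

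Some list members are better known from neutrophils. Ngp, a neutrophil granule protein, was at 2736, 1103 and 748 TPM, in the same order of libraries, with a mean of 1529 TPM that was 925 TPM without library 1. S100a9, which forms calprotectin with S100a8, was at 975, 558 and 528 TPM, and S100a8 at 183, 158 and 170 TPM. Camp and Ltf, of secondary granules, had means of 69.0 and 45.8 TPM, while Mpo, Elane and Prtn3, of primary granules, had means of 5.50, 4.93 and 2.42 TPM. Retnla, a resistin-like protein linked to type 2 immunity, was at 545, 761 and 762 TPM, the reverse of the granule order, with library 1 lowest. Of the 28 genes 19 were expressed, and Ear14 had no count in any library. Proteins of granule transport and release were present at moderate levels: Cd63, a tetraspanin of granule membranes, had a mean of 548 TPM, Snap23 342, Rab27a 269, Stxbp2 261 and Vamp8 183 TPM.

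Of the 1469 genes that the table assigns to a transcription factor family, 737 were expressed, a share close to the 46.7% of protein-coding genes. Cebpe, needed for terminal granulocyte maturation, was the most abundant with 1586, 1891 and 2070 TPM (rank 51). Cebpb followed at 965, 1372 and 1102 TPM, and Spi1, which encodes PU.1, at 995, 1282 and 1065 TPM. The ranges of Cebpb and Spi1 overlapped, so their order is not set by these libraries, whereas the lowest library of Cebpe lay above the highest of either. Bhlhe40 was at 866, 948 and 964 TPM and Klf2 at 674, 890 and 743 TPM. Id2, an inhibitor of basic helix-loop-helix factors, was very even at 669, 684 and 675 TPM.

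Gata1, the factor that commits progenitors to the eosinophil lineage, was at 284, 375 and 331 TPM (rank 482). Its relative Gata2, shared with basophils and mast cells, had a mean of 85.4 ± 12.1 TPM, and Gata3, of T cells, 0.653 TPM. Cebpa, which acts earlier in myeloid development than Cebpe, had a mean of 10.0 TPM, and the ratio of Cebpe to Cebpa was 187 ± 41.2 (SD, n = 3). Xbp1, which maturing eosinophils need for secretory protein load, was at 370, 446 and 463 TPM. Stat6, the signal carrier of IL-4 and IL-13, had a mean of 301 TPM, Stat5b 142 TPM and Stat5a 32.7 TPM. In the lineage list 38 of 40 genes were expressed, or 95%, against 46.7% of protein-coding genes.

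Of 50 cytokine receptor genes 39 were expressed, or 78%, against 46.7% of protein-coding genes. The 3 most abundant were chains of the receptors for IL-5, IL-3 and GM-CSF. Csf2rb, the common beta chain, was at 1903, 1686 and 1577 TPM. Csf2ra, the alpha chain for GM-CSF, was at 1345, 1291 and 1187 TPM and Csf2rb2, the beta chain that serves IL-3 in the mouse, at 1339, 1110 and 1133 TPM. Csf2rb and Csf2rb2 are close copies, so reads may be shared between them. Il5ra, the alpha chain for IL-5, was lower than these, and the ratio of Csf2rb to Il5ra was 12.3, 16.1 and 11.6 on the TPM scale. Il3ra, the alpha chain for IL-3, had a mean of 20.9 TPM.

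The receptors for epithelial alarmins did not have like levels. Crlf2, the receptor chain for thymic stromal lymphopoietin, was at 377, 456 and 435 TPM. Its partner chain Il7r had a mean of 6.72 TPM, and Il17rb, for IL-25, 1.21 TPM. Il1rl1, the IL-33 receptor ST2, was at 277, 245 and 294 TPM. The co-receptor of ST2, Il1rap, had a mean of 1.61 TPM, and the ratio of Il1rl1 to Il1rap was 142, 218 and 169. The table gives 1 row per gene, so soluble and membrane forms of ST2 cannot be told apart. Csf1r, the receptor for the macrophage growth factor M-CSF, was at 308, 272 and 339 TPM. Il4ra had a mean of 157 ± 7.61 TPM and its partner Il13ra1 5.88 TPM. Both interferon-gamma receptor chains were near 218 TPM, with means of 218 ± 14.7 for Ifngr1 and 217 ± 18.8 for Ifngr2, and Il13ra2, a decoy receptor, had no count. Of the 49 neighbouring pairs in this order of levels 39 had overlapping ranges, so the order is coarse.

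Among 52 receptors for chemoattractants and mediators, 37 were expressed, or 71.2%, against 46.7% of protein-coding genes. After Ccr3 came Ltb4r1, the high-affinity receptor for leukotriene B4, at 909, 1485 and 1065 TPM, with library 2 highest. P2rx1, an ATP-gated channel, was at 1006, 792 and 856 TPM and Cxcr4, which holds granulocytes in the marrow, at 681, 643 and 921 TPM. Ptafr, for platelet-activating factor, was at 581, 612 and 709 TPM and Ccr1 at 450, 444 and 453 TPM. The ranges of Ltb4r1 and P2rx1 overlapped, and so did those of P2rx1 and Cxcr4. C3ar1 and C5ar1, for complement fragments, had means of 241 and 157 TPM. Ptgdr2, the prostaglandin D2 receptor CRTH2, had a mean of 23.7 TPM, Hrh4, for histamine, 1.04 TPM and Cysltr1 0.158 TPM. Ackr3, Ccr10 and Ptgdr had no count in any library.

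**Figure D3:**
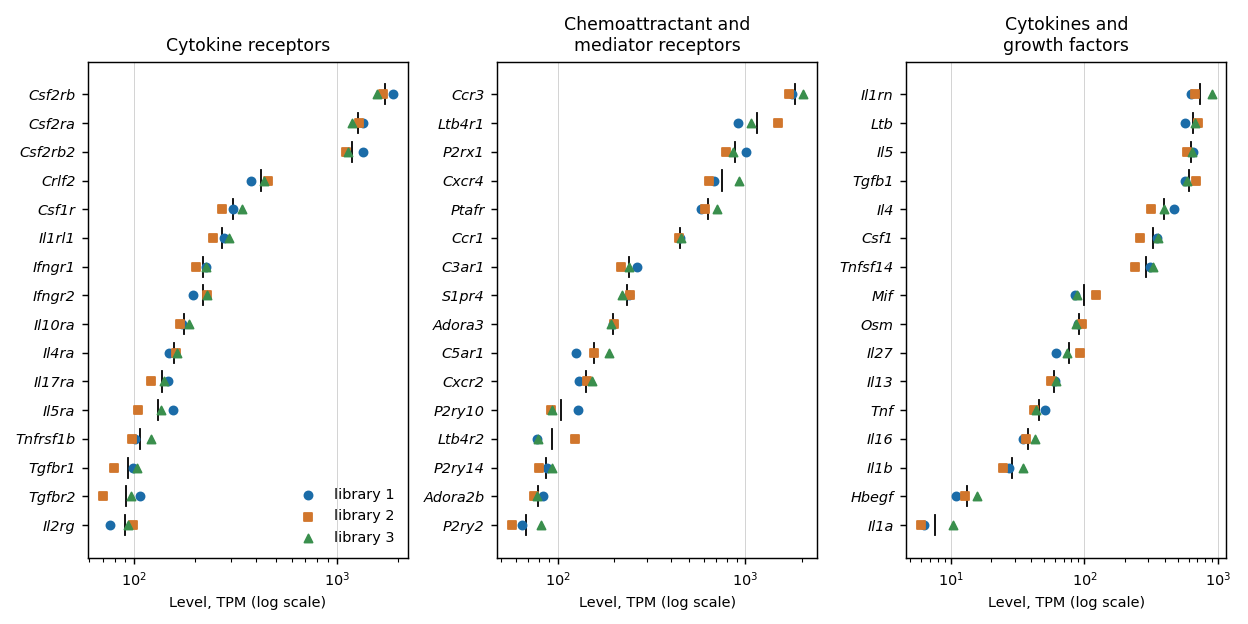
Level in TPM (log scale) of the 16 most abundant members of the lists of cytokine receptors, receptors for chemoattractants and mediators, and cytokines, with a point per library and a bar at the mean. Csf2rb, Csf2ra and Csf2rb2 lie above the other cytokine receptors, Ccr3 leads the chemoattractant receptors, and Il1rn, Ltb, Il5 and Tgfb1 form a group of like level.

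Of the 49 listed inhibitory and activating surface receptors and their partners 43 were expressed, or 87.8%, against 46.7% of protein-coding genes. The adaptors of activating receptors led: Tyrobp, DAP12, was at 4145, 3963 and 3822 TPM and Fcer1g, the Fc receptor gamma chain, at 1487, 1729 and 1669 TPM. Sirpa, the receptor for the self signal CD47, was at 1210, 1085 and 1214 TPM, and Fcgr3, a low-affinity IgG receptor, at 1148, 1089 and 1186 TPM. Siglecf at 1160, 922 and 1185 TPM overlapped with both. Other sialic acid-binding receptors were lower, with means of 415 TPM for Siglecg, 408 for Siglece and 91.7 for Cd33, while Siglec15 had no count. Ptpn6, the phosphatase SHP-1 that such receptors recruit, had a mean of 857 ± 63.8 TPM, against 44.9 TPM for its relative Ptpn11. Fcer1a, the alpha chain of the IgE receptor, had a mean of 4.19 TPM.

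Among adhesion molecules 43 of 45 genes were expressed, or 95.6%, against 46.7% of protein-coding genes. Cd24a was at 5630, 5480 and 5599 TPM, one of the steadiest abundant genes. Itgb2, the beta chain of leukocyte integrins, was at 1450, 1059 and 1288 TPM, Cd9 at 1208, 1257 and 1249 TPM, and Adgre1, which encodes F4/80, at 1344, 1039 and 1259 TPM. These 3 genes overlapped in range. Itgb7, an integrin chain for gut homing, was at 821, 849 and 865 TPM, while its partner Itga4 had a mean of 51.1 TPM. The ratio of the 2 was 14.7, 25.9 and 13.3. Itgam, Itgax and Itgal, alpha chains that pair with Itgb2, had means of 352, 292 and 422 TPM.

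Of 55 cytokine genes 21 were expressed, or 38.2%, against 46.7% of protein-coding genes, and 9 had no count in any library (Csf2, Ereg, Il11, Il17a, Il19, Il2, Il25, Il3 and Il9). Il1rn, the IL-1 receptor antagonist, was at 628, 677 and 895 TPM. Ltb, lymphotoxin beta, was at 568, 706 and 667 TPM, and Tgfb1 at 562, 681 and 581 TPM. Il5 was at 645, 588 and 633 TPM. The table has 1 row for Il5, so transcripts of the transgene and of the native gene cannot be told apart here. The T-cell genes Trbc2, Trac, Cd3d and Cd3e had means of 27.6, 13.9, 7.76 and 3.70 TPM in the same libraries. The source of the Il5 counts was not tested.

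Il4 was at 470, 314 and 395 TPM and Il13 at 60.3, 56.6 and 61.2 TPM, a ratio of 7.80, 5.55 and 6.45. The cells were sorted on the 4get reporter, which marks IL-4 producing cells. The part of this gate in the level of Il4 was not tested. Csf1, the ligand of Csf1r, was at 352, 260 and 356 TPM and Tnfsf14, LIGHT, at 311, 238 and 324 TPM. Tnf had a mean of 45.5 TPM, Il1b 28.9 TPM and Il6 3.27 TPM. Of 33 chemokine genes 9 were expressed, or 27.3%, and 11 had no count. Ccl6 made up 93.6% of the list's TPM. Ccl9 was at 439, 433 and 621 TPM, Ccl3 at 95.4, 93.4 and 66.1 TPM, and Ccl17 and Ccl22, which attract T cells with CCR4, had means of 7.04 and 2.24 TPM. Ccl11, Ccl2, Cxcl1 and Cxcl5 were among those without a count.

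Enzymes of eicosanoid metabolism included 4 genes over 1000 TPM. Cyp4f18, which inactivates leukotriene B4, was at 2934, 3484 and 3924 TPM. Alox15, the lipoxygenase typical of eosinophils, was at 2714, 2115 and 2225 TPM. Alox5ap, which presents arachidonate to 5-lipoxygenase, was at 2006, 2311 and 2427 TPM and Pla2g7, which hydrolyses platelet-activating factor, at 1407, 1774 and 1743 TPM. Alox15 and Alox5ap overlapped in range. Alox5 itself was at 633, 604 and 694 TPM and Lta4h, the last step to leukotriene B4, at 360, 324 and 364 TPM. Ltc4s, the last step to leukotriene C4, had a mean of 1.67 TPM, and Ptgs2 1.70 TPM, against 150 TPM for Ptgs1.

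Of the oxidase and antioxidant list 36 of 38 genes were expressed, or 94.7%, against 46.7% of protein-coding genes. Cyba, the small membrane chain of the phagocyte oxidase, was at 2667, 3368 and 2945 TPM, while the catalytic chain Cybb had a mean of 87.2 TPM, and their ratio was 29.4, 52.1 and 27.7. The cytosolic chains Ncf1 and Ncf4 had means of 846 and 741 TPM, and Rac2 1115 ± 22.5 TPM. Gpx1, glutathione peroxidase, was at 1806, 2381 and 2286 TPM, and Gsr, which renews glutathione, at 1262, 1157 and 1135 TPM. Sod1 and Sod2 were lower, with means of 64.3 and 14.4 TPM. In the lysosomal list, where 39 of 41 were expressed, Laptm5 led at 1628, 1634 and 1873 TPM. Man2b1, Cst3 and Ctsd followed with means of 933, 914 and 876 TPM and overlapping ranges.

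Survival genes were led by Mcl1, an anti-apoptotic member of the BCL2 family, at 1605, 1587 and 1678 TPM. It exceeded Bcl2l1, which encodes BCL-XL, by a ratio of 20.5 ± 2.04 (SD, n = 3), and Bcl2 had a mean of 6.44 TPM. The Bcl2a1 copies Bcl2a1a, Bcl2a1d and Bcl2a1b had means of 327, 220 and 60.4 TPM, and reads may be shared among them. Pim1 and Pim2, survival kinases induced by cytokines, had means of 671 ± 26.4 and 306 ± 48.6 TPM. The effectors Bax and Bak1 had means of 219 and 172 TPM. The feedback genes Socs1 and Cish had means of 416 and 211 TPM. Of the immediate early genes, Zfp36l2, Rhob, Btg2 and Junb had means of 889, 663, 456 and 426 TPM, whereas Fos, Egr1, Jun and Myc had 38.8, 17.0, 14.4 and 10.2 TPM.

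Of 41 innate sensors and adaptors 35 were expressed and 3 passed 100 TPM, a level that 1696 of all 11726 expressed genes passed. These were Gsdmd, the pore-forming gasdermin D, at 243, 268 and 229 TPM, the adaptor Myd88 at 152, 167 and 160 TPM, and Unc93b1, a chaperone of endosomal receptors, at 88.6, 121 and 97.1 TPM. Tlr13 and Tlr4 led the Toll-like receptors with means of 29.6 and 27.5 TPM, Tlr2 had 2.37 TPM and Tlr11 no count. Among interferon-stimulated genes 25 of 38 were expressed, led by Slfn2 at 1546, 1677 and 1562 TPM, Ifitm1 at 866, 659 and 697 TPM and Ifitm2 at 297, 364 and 455 TPM. Isg15 had a mean of 14.7 TPM, and Ifit1, Mx1 and Rsad2 were each under 1 TPM.

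Of 27 glycolysis genes 24 were expressed. Aldoa, aldolase A, was at 2402, 2692 and 2631 TPM, above Gapdh with a mean of 943 ± 57.5 TPM and Pkm with 717 ± 24.2 TPM. The glucose transporter Slc2a1 had a mean of 216 ± 4.79 TPM against 72.4 TPM for Slc2a3. Of the genes of fatty acid and triglyceride metabolism 32 of 37 were expressed and 4 passed 100 TPM. Pnpla2, the lipase that opens fat droplets, was at 154, 162 and 164 TPM, Elovl1 at 155, 162 and 161 TPM, and Cpt1a, which passes fatty acids to mitochondria, at 121, 67.0 and 91.9 TPM.

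Markers of other cell types were present at different depths of the profile. Neutrophil markers summed to 2894, 2228 and 1554 CPM over 18 genes, against 6453, 4640 and 3926 CPM for the 5 eosinophil markers. Retnlg, a resistin-like gene of neutrophils, made up 57.3% of the list's TPM with 5098, 5010 and 2380 TPM. Padi4, Mmp9 and the chemokine receptor gene Cxcr2 had means of 234, 164 and 142 TPM. The surface gene Ly6g was at 22.1, 9.46 and 7.09 TPM, the G-CSF receptor gene Csf3r had a mean of 7.36 TPM, and Stfa2 had no count. How much of Retnlg, Ngp or S100a9 came from neutrophils was not tested. In a bulk sample, fewer cells of a type and less RNA per cell cannot be told apart.

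B-cell and plasma-cell markers were expressed in 18 of 20 cases and summed to 1002, 1443 and 974 CPM. Igkc was at 621, 819 and 776 TPM, Ighm at 682, 716 and 603 TPM and Cd79a at 188, 350 and 213 TPM, while the plasma-cell gene Sdc1 had a mean of 0.738 TPM. T-cell and group 2 innate lymphoid markers summed to 640, 635 and 659 CPM, but 70.9% of that list's TPM was Il1rl1, which eosinophils also express. Trac had a mean of 13.9 TPM and Gata3 0.653 TPM. NK-cell markers summed to 9.77, 10.2 and 8.05 CPM, with 2 of 11 expressed and Ncr1 at 0.

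The lists for monocytes and macrophages and for dendritic cells held members at very different levels. Monocyte and macrophage markers summed to 2160, 1868 and 1936 CPM, and Adgre1, Csf1r, Hmox1 and Ly6c2 led them with means of 1214, 306, 201 and 123 TPM. C1qa, Mertk and Cd163 had means of 5.41, 0.233 and 0.200 TPM. Dendritic-cell markers summed to 1080, 1383 and 1299 CPM, led by Cst3 at a mean of 914 TPM and by class II genes. Batf3 had a mean of 34.9 TPM, Flt3 0.718 TPM and Xcr1 0.0915 TPM. Basophil and mast-cell markers summed to 448, 323 and 308 CPM. Hdc, which makes histamine, and Gata2 had means of 94.7 and 85.4 TPM, the basophil protease Mcpt8 had 7.75 TPM, and Mcpt2, Tpsab1 and Tpsb2 had no count.

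The remaining lists were low or were carried by 1 gene. Erythroid markers summed to 40.6, 43.6 and 25.2 CPM, with Hba-a1 at a mean of 30.5 TPM. Megakaryocyte and platelet markers summed to 128, 97.2 and 98.4 CPM, 92.7% of whose TPM was Itga2b, and Treml1 had no count. Stroma and endothelium markers summed to 312, 325 and 357 CPM, 90.7% of whose TPM was Pecam1, which leukocytes also carry, and Col1a1, Col3a1 and Kdr had no count.

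**Figure D4:**
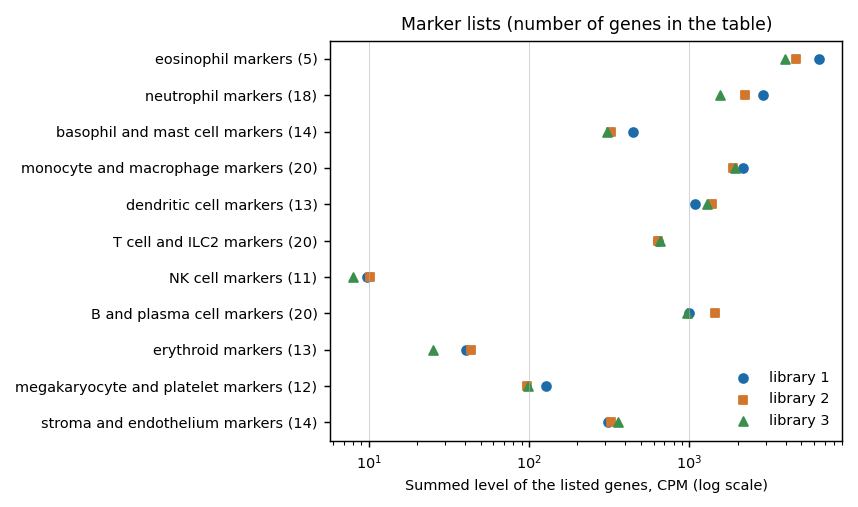
Summed CPM (log scale) of the genes of each marker list, with a point per library and the number of listed genes in brackets. The eosinophil list lies highest in each library, B-cell markers are highest in library 2, and neutrophil markers run from 1554 to 2894 CPM.

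The libraries differed from each other by more than counting. A gene was said to stand apart in a library when its CPM was at least 1.5-fold above, or below, that of both other libraries. In library 1, 266 expressed genes stood apart high (2.27%) and 234 low (2.00%). In library 2, 331 stood apart high (2.82%) and 384 low (3.27%), and in library 3, 237 high (2.02%) and 248 low (2.11%). The chi-square statistic over its degrees of freedom was 38.3 for libraries 1 and 2, 17.2 for 1 and 3, and 24.2 for 2 and 3, so each pair differed by more than counting noise.

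In library 1 a part of the granule genes and many genes of dividing cells were high. Of the 19 expressed granule-list genes 8 stood apart high in library 1 (42.1%, against 2.27% of all expressed genes). In library 3, 7 stood apart low (36.8%, against 2.11%). The list was not uniform: 10 genes were highest and 4 lowest in library 1, and 1 stood apart high in library 3. Of 27 expressed proliferation genes 15 stood apart high in library 1 (55.6%, against 2.27%), and 24 were highest there, against 35.8% of all expressed genes. Tubb5, which is also one of the tubulins described next, Hmgb2, a chromatin protein, and Pcna, the sliding clamp of replication, passed 100 TPM with means of 797, 319 and 101 TPM. Tubb5 was low in library 1, at 571, 934 and 925 CPM, and Hmgb2 was even, at 291, 292 and 291 CPM. The next in order, Mcm4, had a mean of 25.0 TPM, and the median of the list was 6.65 TPM. Mki67, the proliferation antigen Ki-67, was at 72.3, 23.8 and 35.8 CPM, Top2a, a topoisomerase of dividing cells, at 43.9, 13.7 and 10.6 CPM, and Rrm2, which makes deoxynucleotides, at 19.5, 8.32 and 4.15 CPM. Ccna2, cyclin A2, was at 12.1, 2.62 and 2.49 CPM. Without library 1 the mean TPM of Top2a went from 8.40 to 4.35 and that of Ccna2 from 4.69 to 2.02. Neutrophil markers stood apart high in library 1 in 4 of 15 expressed cases (26.7%, against 2.27% of all expressed genes). The part of neutrophils or of dividing cells in these differences was not tested.

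Tubulin genes were low in library 1. Of 12 expressed tubulin genes, a family picked after its values were seen, 8 stood apart low there (66.7%, against 2.00% of all expressed genes). In all 11 were lowest there, against 33.2% of all expressed genes. Tubb5 was at 571, 934 and 925 CPM and Tuba1b at 217, 397 and 386 CPM. Tuba8, which was at 263, 466 and 512 CPM, shared the pattern, while Tubb3 at 7.04, 7.16 and 7.80 CPM barely differed.

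In library 2 many genes of B cells and of class II antigen presentation were high. Of 18 expressed B-cell and plasma-cell markers 8 stood apart high in library 2 (44.4%, against 2.82% of all expressed genes). In all 16 were highest there, against 37.2% of all expressed genes. The other 2 stood apart low in library 2 (11.1%, against 3.27%). Among the 34 antigen presentation genes, all of them expressed, 6 stood apart high in library 2 (17.6%, against 2.82%) and 27 were highest there. Cd74, the invariant chain of class II molecules, was at 584, 1146 and 595 CPM, so that library 2 lay far above the others. On the TPM scale H2-Ab1 was at 418, 666 and 401 and H2-Aa at 287, 437 and 256. The class I genes B2m and H2-D1 were higher and even, at 5708, 5755 and 6425 TPM and at 2802, 2869 and 2842 TPM. The share of the class II signal that came from B cells was not tested.

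Library 2 also differed by gene length. Genes in the shortest sixth, of 42 to 1968 bases, had a median log2 CPM 0.18 above the mean of the other libraries. Genes in the longest sixth, of 7827 to 123179 bases, had a median of -0.22, and the sixths between fell in order. Syne1, which encodes the giant nuclear envelope protein nesprin-1, was at 2370, 982 and 2557 CPM. Library 1 had the opposite slope, from -0.15 in the shortest to 0.16 in the longest sixth. The median of each length sixth was then removed in each library, an alternative added after the data were seen. In library 1, 8 of 19 granule genes (42.1%) and 16 of 27 proliferation genes (59.3%) then stood apart high, against 2.38% of all expressed genes. Tubulin genes stood apart low there in 6 of 12 cases (50.0%, against 1.71%). In library 2, 7 of 18 B-cell markers (38.9%) and 4 of 34 antigen presentation genes (11.8%) stood apart high, against 2.24%. In library 3, 6 granule genes (31.6%), 5 proliferation genes (18.5%) and 5 T-cell and innate lymphoid markers (27.8%) stood apart low, against 2.00%.

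Library 3 stood apart low for parts of the granule, proliferation and T-cell lists. Among the 27 expressed proliferation genes 7 stood apart low there (25.9%, against 2.11% of all expressed genes). Library 3 was the lowest for 18 of them, against 28.6% of all expressed genes. Eps8l1, an actin regulator, was at 7.11, 11.5 and 54.7 CPM, the gene with the largest SD between libraries among those with a mean of at least 20 CPM. Its mean went from 13.4 to 4.96 TPM without library 3. Itgax, the integrin CD11c, was at 374, 323 and 574 CPM. Of the 18 expressed markers of T cells and group 2 innate lymphoid cells, 7 stood apart low in library 3 (38.9%, against 2.11% of all expressed genes). In all 14 were lowest there, against 28.6% of all expressed genes. Of the 12 genes with the largest SD, 9 were highest in library 1 and lowest in library 3. Among them were the granule genes Prg2, Prg3, Epx, Ear1 and Ear2 described above, Top2a and the secreted granulocyte protein gene Olfm4. Library 1 was the highest for 35.8% and library 3 the lowest for 28.6% of all expressed genes. The share with both was not counted. At the other end, Prcp, a serine carboxypeptidase, was at 25.8, 25.8 and 25.8 CPM, Sumo2 at 64.2, 64.5 and 64.2 CPM, and the receptor kinase gene Grk6 at 435, 433 and 432 CPM.

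**Figure D5:**
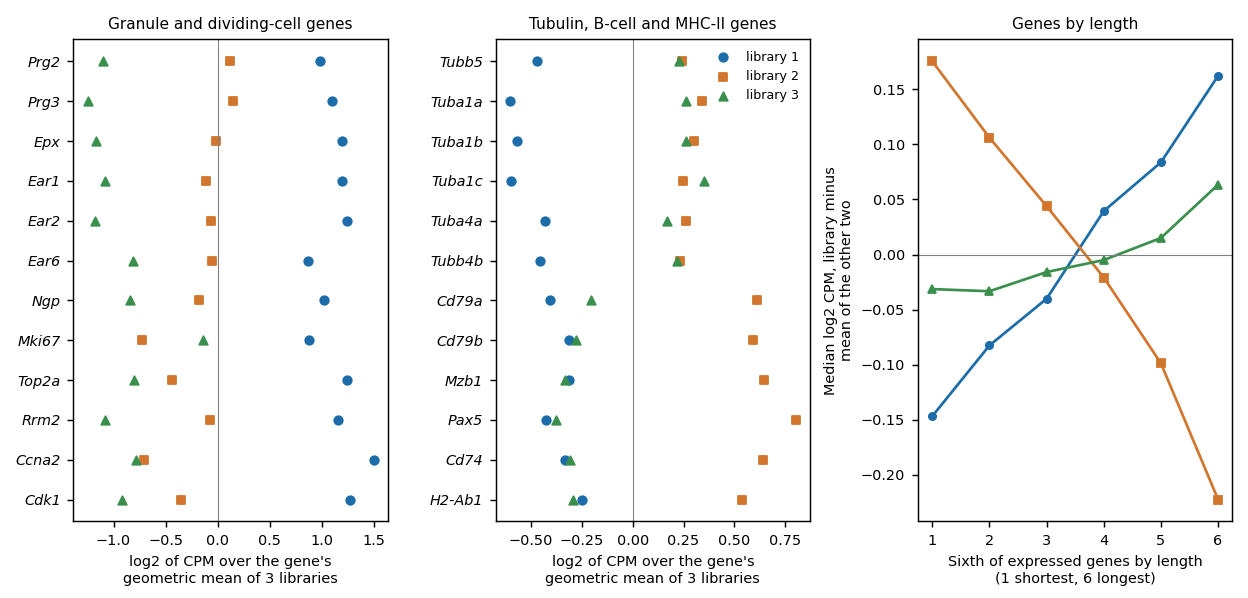
Left and middle, log2 of the CPM of a gene in a library over the geometric mean of its 3 libraries, for genes chosen to show the groups named in the titles. Right, the median log2 CPM of a library minus the mean of the others, for sixths of the expressed genes by length. Library 1 lies to the right for granule and dividing-cell genes and to the left for tubulins, library 2 to the right for B-cell and class II genes, and the lines of libraries 1 and 2 cross with length.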

How the data were processed

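RNA sequencing counts of 3 isotype libraries, replicates 1, 2 and 3 of 1 group, were analysed. The authors deposited whole-number counts per gene for 54532 genes, with gene lengths, biotypes and mm10 coordinates, per the file headers. Per the submitters' processing notes, fastp, FastQC 0.11.8, STAR 2.6.1d, featureCounts 1.5.0-p3 and DESeq2 were used with mm10. Neither the annotation release nor the strand setting is given in the sources used here, so overlapping and antisense genes cannot be told apart, and near-identical copies (the Ear and Bcl2a1 genes, Csf2rb with Csf2rb2, Actb with Actg1 and its pseudogenes) are uncertain. The deposited normalized table was not used.

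From the counts, CPM (of the library's total) and TPM (count per length in the table, scaled within the library) were computed in Python 3.11.15 with pandas 2.3.3. TPM of very short gene models is inflated when fragments are longer than the model. The spread was measured as the SD of log2(CPM + 0.5) and by the common dispersion of edgeR 4.0.16 in R 4.3.3, whose script was tested on simulated data. A symbol with several rows was taken at its most abundant row. With 1 group there is no contrast, so no test was made and no p-value is given. Precision is set by 3 libraries and by total counts of 12046727 to 14636985.

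The 32 gene lists, with 986 of 988 symbols in the table, and the libraries themselves were chosen with earlier results of these data known. The named genes are the 30 highest by TPM and by CPM, the markers, up to 10 members of each list and those at 0, the 20 most abundant transcription factors and the 12 most and least variable genes of at least 20 CPM. Other list members could be picked after their values were seen. Promoters were matched by symbol to RefSeq (GRCm38.p6). Of the 100 most abundant protein-coding genes only 68 had an entry, with 84 promoters, so the shares do not cover the rest. The GATA letters stood in 16.7% of these 84, against 18.6% of all promoters and 10.4% of those of expressed protein-coding genes. In the same order, TTGCNNAA stood in 17.9%, 10.8% and 8.40%, and GAGGAA in 27.4%, 28.3% and 26.9%. TATAAA stood in 20.2%, 13.6% and 6.74%. No test was made of these shares.

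Alternatives were the expression threshold, CPM against TPM, scaling by TMM or by the size factors of DESeq2 1.42.0, the pseudocount, protein-coding genes alone, the median over libraries, mitochondrial genes left out and each library left out. Leaving out genes under 200 bases and removing the length trend were added after the data were seen.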

Additional observations from a re-analysis of the deposited data

How the results depend on the processing

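No paired analysis was possible because only 1 group was described and its results come from no test. The number of expressed genes was 17654 at 1 count in each library in place of 1 CPM, and 8897 to 13296 at 5 CPM or 1 TPM. Ranked by TPM, the top 10 genes took 10.8% and the top 100 took 30.6% of the total. By CPM, Prg2 ranked 39, Ccr3 37 and Il5ra 1576. As shares of CPM, mitochondrially encoded genes took 1.52%, cytosolic ribosomal protein genes 2.31%, nuclear oxidative phosphorylation genes 0.495%, protein-coding genes 96.9%, granule genes 0.931% and actin and migration genes 6.66%. Protein-coding genes took 94.6% of TPM with genes under 200 bases left out. Leaving out 1 library gave a median SD of log2 CPM between 0.11 and 0.17, lowest without library 2, and a coefficient of variation from the common dispersion between 13.0% and 17.8%, against 15.5% with all. The mean of 2 of 3 libraries always lies within 1 SD of the full mean, so class shares and gene means could not move by this measure. Marker ranks and the shares of the top genes are not strictly bound, but the SD they were judged by includes the library left out. Epx thus counted as unmoved at rank 656 without library 1, against 355 with all and an SD of 462 ranks. Prg2 counted as unmoved at rank 16 against 8, with an SD of 13.4 ranks. The number of expressed genes can only rise when a library is left out, and was 11974 to 12037 against 11726. That none of these moved without 1 library therefore says little about their stability. The rank of Ccr3 came close, going from 52 to 59 without library 3 against an SD of 7.51 ranks. Under TMM and DESeq2 scaling the counts of genes standing apart were again 8 of 19 granule, 15 of 27 proliferation, 8 of 12 tubulin and 8 of 18 B-cell genes. The shares of all expressed genes in the same libraries and directions lay between 1.93% and 2.92%. Depth limits genes under about 5 CPM, where the median SD was 0.28 and counting alone gave 0.17. TPM of copies and very short models, and the source of transcripts of other cell types, are not settled by these counts.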

Other observations

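Some abundant genes were not described above. Cotl1, a partner of 5-lipoxygenase that also binds actin, was at 4304, 5164 and 4856 TPM, and Sh3bgrl3 at 3065, 3680 and 3641 TPM, both with library 1 lowest. Among transcription factors, Atf4, of the integrated stress response, was at 505, 553 and 494 TPM and Lyl1, a factor of early blood cells, at 414, 442 and 471 TPM. Rara, a retinoic acid receptor, was at 405, 486 and 395 TPM, and Nfe2, known from platelet and red cell formation, at 290, 305 and 347 TPM. Gm8113, a protein-coding gene model on chromosome 14 between Ear1 and Ear2 in the table, was at 106, 26.5 and 16.9 TPM, the same order of libraries as those genes.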
